A study of Mus musculus with 24 samples.

Results

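Axon guidance genes encode the ligands and receptors that attract or repel growing axons and migrating cells. Their RNA was counted in hippocampal cells of adult C57BL/6 mice, sorted for GFP. Members were matched by gene symbol, under a rule chosen with earlier results of these data known. It took ephrins and Eph receptors, class 3 to 7 semaphorins, plexins A to D, neuropilins, Slits, Robos, netrins, Dcc and Unc5 receptors. The rule matched 68 of 48321 symbols, 34 ligands and 34 receptors. They were 8 ephrins, 14 Eph receptors, 20 semaphorins, 9 plexins, 2 neuropilins, 3 Slits, 4 Robos, 3 netrins, and 5 receptors of the Dcc and Unc5 family.

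Notch2 conditional knockout (CKO) pools came from mice with Hes5::CreERT2, Notch2 flox/flox and Rosa26R-CAG::GFP. Wild-type (WT) pools came from mice with the same Cre driver and reporter and with Notch2 wt/wt. Both genotypes received tamoxifen for 5 days, and cells were sorted after a chase of 1 day. Recombination and the GFP mark therefore depended on Hes5 promoter activity in both genotypes, and each of the 6 pools (3 CKO, 3 WT) mixed cells of several animals.

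The guidance systems share a plan in which a ligand on or near a cell changes the actin skeleton of a cell that carries the receptor. Ephrins act by contact on Eph receptor kinases. Semaphorins act on plexins, with neuropilins as co-receptors for most secreted ones. Slits act on Robos and are mostly repellents, while netrins attract through Dcc and repel through Unc5 receptors. In the adult brain many of these genes are used outside axon growth, in neuroblast migration, in contacts between astrocytes and progenitors, and in the oligodendrocyte lineage. In mouse hippocampus, ephrin-B2 on astrocytes acts on EphB4 of progenitors and promotes neuronal differentiation.

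Reads in genes ranged from 40366579 to 53984963 per pool. Levels are given as CPM, reads scaled to a common library size with TMM factors, and 1 read was worth 0.0175 to 0.0265 CPM. Notch2 itself had 65.3, 116 and 121 CPM in the CKO pools, against 99.3, 146 and 303 CPM in the WT pools. The genotypes overlapped, and the log2 fold change was -0.86 (SE 0.45, edgeR adjusted p = 0.790), or -0.29 without WT pool 3. The floxed exons are not given in the labels, so the gene count checks the deletion only in part. Summed over 12 markers, stem cell and astrocyte genes stood at 16756 to 24827 CPM in CKO pools and 10792 to 18435 CPM in WT pools. The 12 did not move together, with log2 fold changes from -0.53 (Hopx) to 0.70 (Gja1). Those of Sox2, Hopx, Aldh1l1, Fabp7 and S100b were below 0, and those of the rest above 0. Summed oligodendrocyte markers (8 genes) were at 3124 to 5483 CPM in CKO pools and 2343 to 6292 CPM in WT pools and each of the 8 was read in every pool. In such bulk pools, fewer cells of a type and less RNA per cell cannot be told apart.

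Reads of most guidance genes were found in these pools. Of the 68, 61 had at least 1 read in each of the 6 pools, 58 averaged at least 1 CPM and 32 at least 10 CPM. Of all 21477 genes that passed the filter on low counts, 19608 were read in each pool. Of these 21477, 17874 averaged at least 1 CPM and 10763 at least 10 CPM. To compare genes with each other, CPM was divided by the length of the exons in kb. On that scale plexin-B1 ranked first at 18.8 CPM per kb (mean of 6 pools), followed by Sema4a at 13.6 and Sema4b at 12.3. Semaphorins together made up 39.1% of the summed level of all members, plexins 23.4%, Eph receptors 15.3% and ephrins 12.46%. Slits made up 0.663%, Robos 1.998%, netrins 2.05%, Dcc with Unc5 2.39% and neuropilins 2.60%. As families, the secreted midline cues, Slits and netrins, had small shares beside the semaphorins and ephrins, which have more members. Gene by gene this did not hold for Ntn1. It stood at 3.25 CPM per kb, rank 16 of the 68, below Efna1 (7.90) and Efna2 (6.52) but above the other ephrins.

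**Figure D1:**
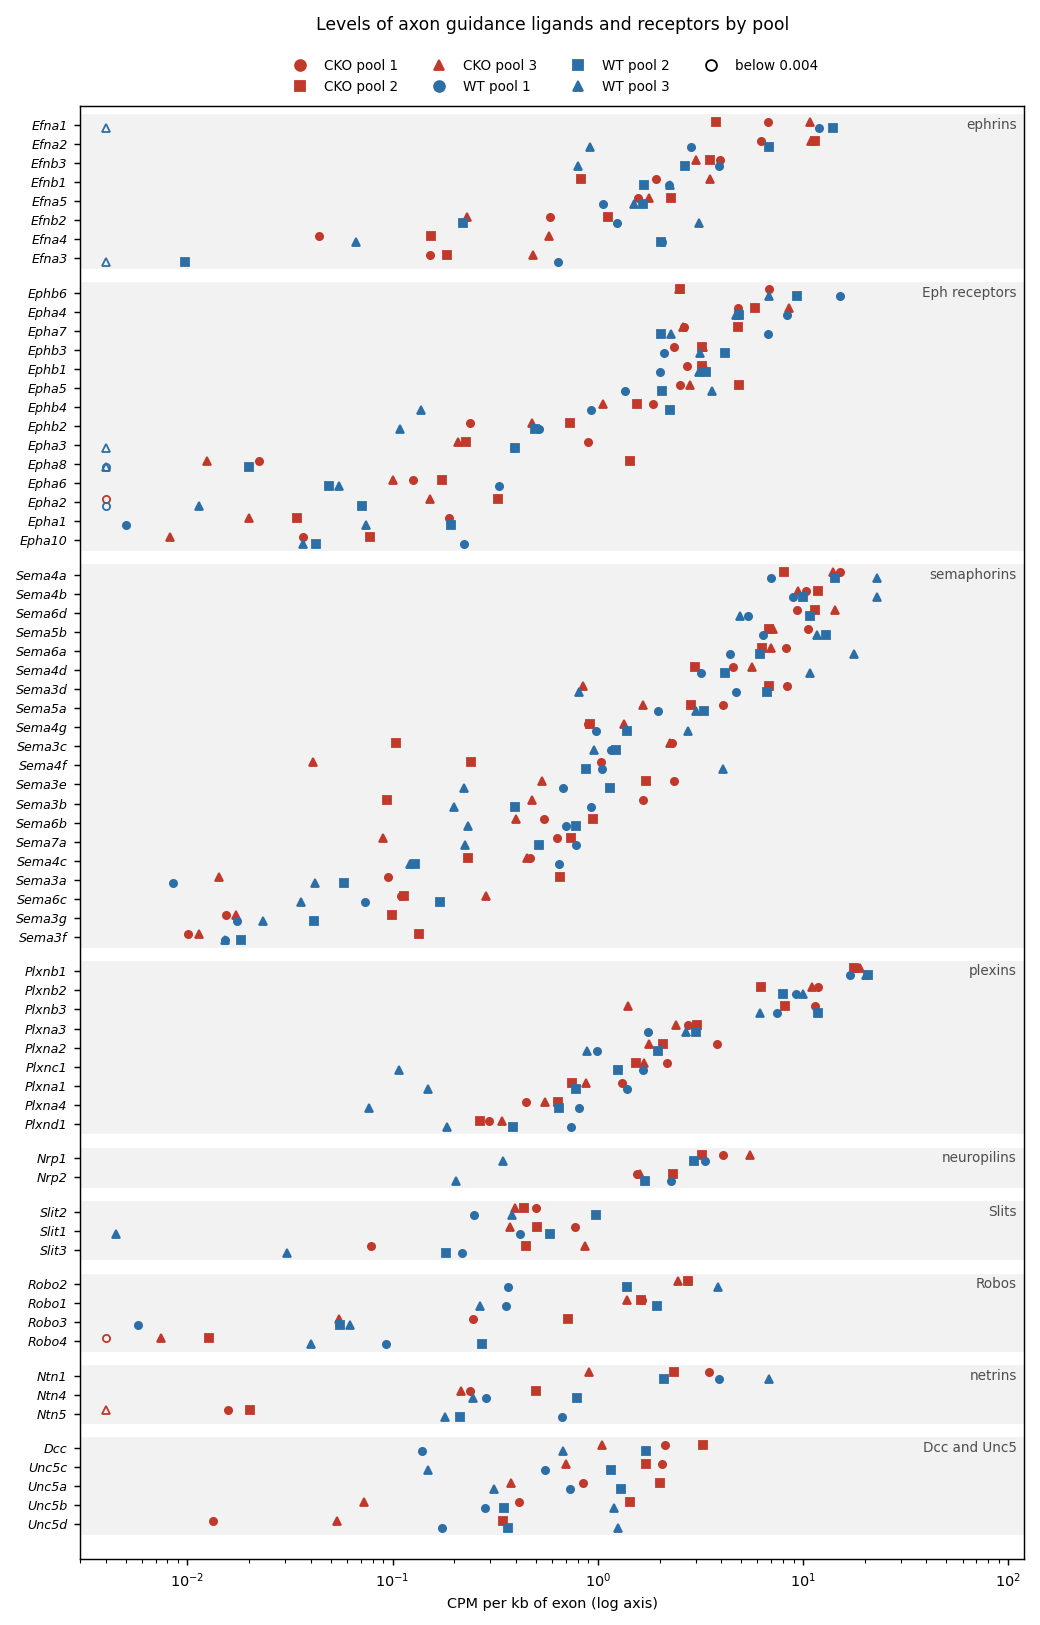
Level of each member in each pool, as CPM per kb of exon on a log axis. Members are grouped by family and ordered by their mean, CKO pools are red and WT pools blue, shapes mark pools 1 to 3, and open symbols are values under 0.004. Plxnb1, at the top of the plexins, lies at nearly the same level in all 6 pools, while Efna1 has no read in WT pool 3.

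The summed level of the 68 members was alike in both genotypes, at 186 ± 12.7 CPM per kb in CKO pools and 187 ± 16.8 in WT pools (SD, n = 3 each). Of 64 members that passed the filter on low counts, 39 had a log2 fold change above 0 and 25 below 0, with a median of 0.12. The median over all 21477 genes tested was -0.06. In edgeR, 0 of 64 members passed an adjusted p under 0.05, where 0.0% of all genes tested passed. Before adjustment 2 of 64 (3.12%) had p under 0.05, both lower in CKO, where 5.91% of all genes tested did (3.01% higher in CKO and 2.9% lower). DESeq2 called 0 members, and 0.633% of all genes with an adjusted p. Unadjusted, it had 7 members with p under 0.05, and 9.44% of all genes. With limma-voom 0 members were called (0.0% of all genes), and 4 had an unadjusted p under 0.05, where 5.87% of all genes did. CKO and WT pools were fully separate for 1 of the 64 (1.56%), and for 15.8% of all genes tested. The members not tested were Epha8, Sema3f, Sema3g and Robo4.

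**Figure D2:**
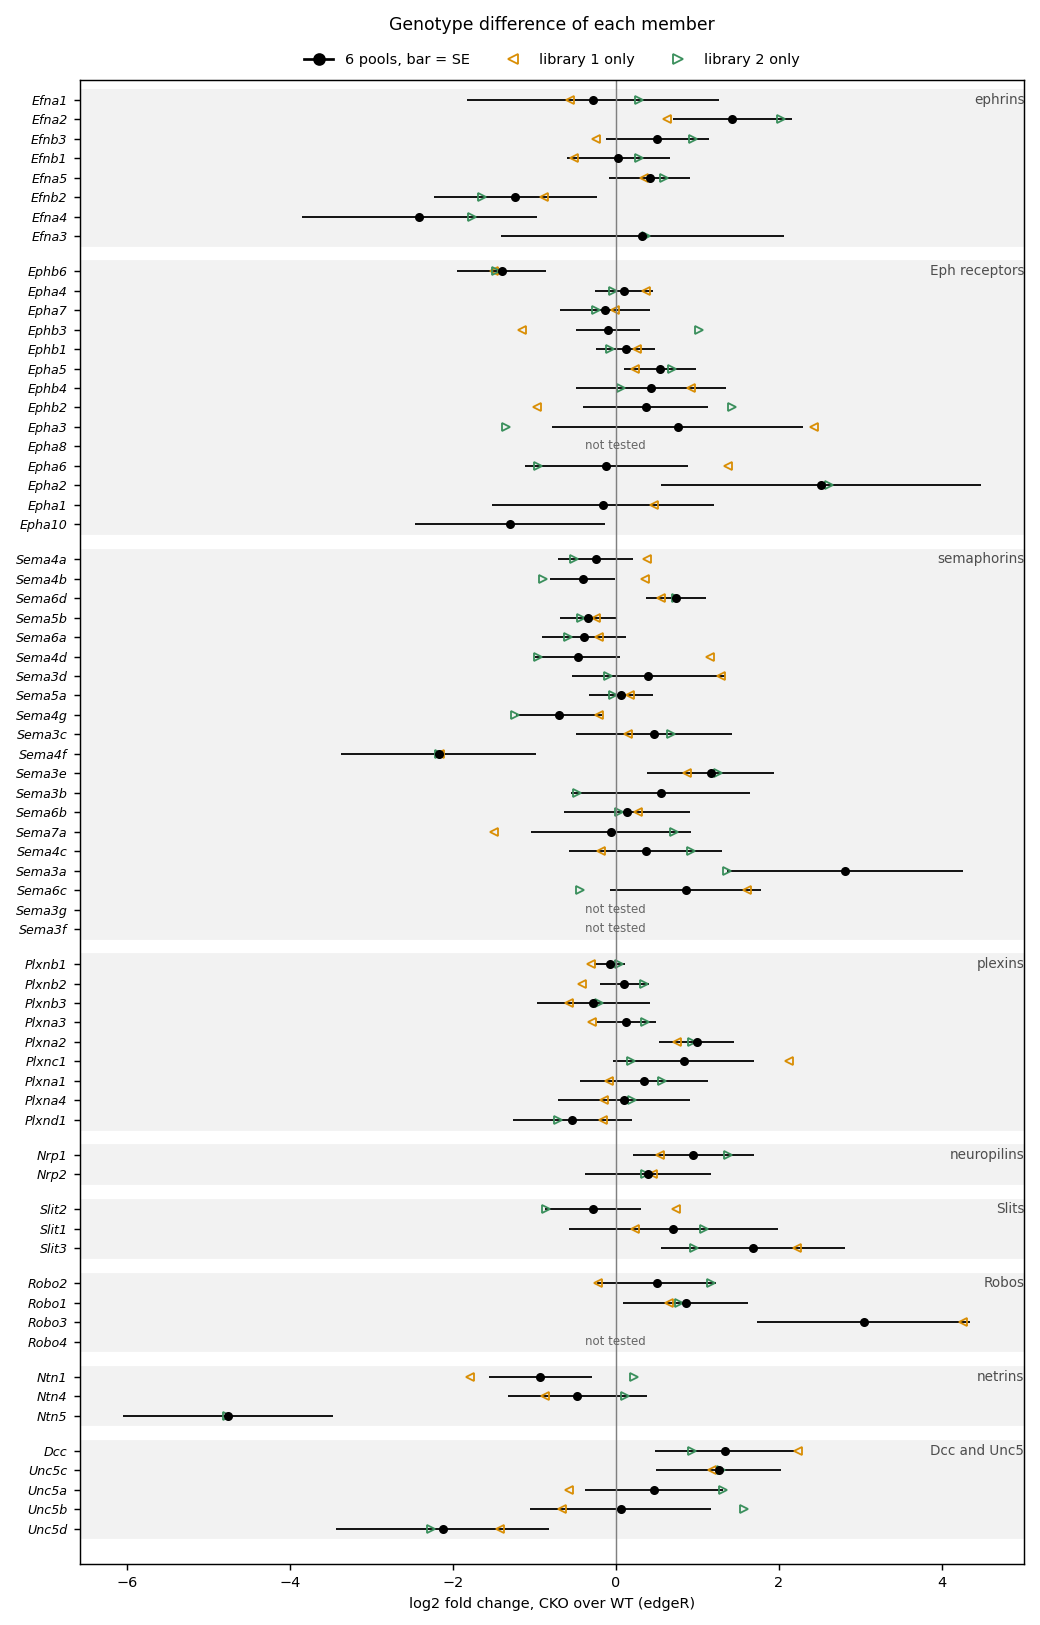
Log2 fold change of each member, CKO over WT. Black points with bars are the edgeR estimate from 6 pools with its standard error, and open triangles are the same contrast within library 1 (left-pointing) and within library 2 (right-pointing). Plxnb1 has the shortest bar, Ntn5 lies farthest from 0, and for members such as Ephb3 and Ntn1 the libraries lie on opposite sides of 0.

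The summed levels of the larger families overlapped between genotypes. Eph receptors summed to 26.5 ± 2.30 CPM per kb in CKO and 30.6 ± 7.11 in WT pools, semaphorins to 70.0 ± 9.57 in CKO and 76.0 ± 27.4 in WT, and plexins to 44.0 ± 7.24 in CKO and 43.4 ± 4.52 in WT (SD, n = 3 each).

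Among the ligands of the Eph system, the 8 ephrins stood at 25.3 ± 5.35 CPM per kb in CKO and 21.2 ± 11.0 in WT pools in sum (SD, n = 3 each). Class A ephrins are tethered by a lipid anchor, and class B ephrins span the membrane. Efna1 had 12.4, 6.91 and 19.8 CPM in CKO pools, against 22.0, 25.5 and 0 CPM in WT pools. The 0 in WT pool 3 held in both of its libraries, and 3 reads there would be 0.0795 CPM. In the other 5 pools the gene had 308 to 1113 reads. Its log2 fold change was -0.28 (SE 1.55, edgeR adjusted p = 0.969), and its sign was not the same in all settings tried.

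Efna2, a ligand that in the mouse subventricular zone restrains progenitor division, had 13.3, 24.4 and 23.2 CPM in CKO pools, against 6.07, 14.5 and 1.96 CPM in WT pools. Only CKO pool 1 lay within the WT range. The log2 fold change was 1.43 (SE 0.73, edgeR adjusted p = 0.790, exact permutation p = 0.2), at 0.62 in library 1 and 2.03 in library 2. It was 2.40 without WT pool 2. Efna5 stood at 7.57 ± 1.496 CPM in CKO and 5.67 ± 1.26 in WT pools, and Efnb1 at 7.21 ± 4.68 CPM in CKO and 7.06 ± 1.11 CPM in WT pools. Efnb2, the astrocyte ligand named above, had 4, 7.69 and 1.57 CPM in CKO pools, against 8.49, 1.51 and 21.2 CPM in WT pools. The log2 fold change was -1.24 with SE 0.9985 (edgeR adjusted p = 0.814), and -0.19 without WT pool 3. Efna3 and Efna4 averaged 0.666 and 0.414 CPM in CKO pools and 0.529 and 2.22 CPM in WT pools.

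Eph receptors covered a range from 7.201 CPM per kb (Ephb6) to 0.0707 (Epha10), means of 6 pools. Both of these encode receptors without kinase activity. Ephb6 (chromosome 6, 41605482 to 41620509, plus strand, GRCm38) was the Eph receptor with the smallest p. It had 25.8, 9.51 and 9.42 CPM in CKO pools, against 57.2, 35.4 and 25.6 CPM in WT pools. The groups overlapped only in that CKO pool 1 stood just above WT pool 3. The log2 fold change was -1.40 (SE 0.54, unadjusted p = 0.0354) and did not pass over all genes (edgeR adjusted p = 0.790, exact permutation p = 0.2). It was -1.50 in library 1 and -1.47 in library 2, and -2.05 to -1.01 when a pool was left out. The libraries of a pool, however, were far apart for this gene, at 61.4 and 0.947 CPM in WT pool 3 and 21.6 and 81.2 CPM in WT pool 1. Summed excitatory and granule neuron markers (9 genes) were also highest in WT pool 1, at 947 CPM, against 367 to 424 CPM in CKO pools and 359 and 548 CPM in the other WT pools. Their part in the Ephb6 values was not tested.

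Epha4, a receptor for both ephrin classes and a major one of astrocytes, had 38.9, 47.2 and 69.2 CPM in CKO pools, against 67.5, 39.2 and 38.1 CPM in WT pools. The ranges coincided (log2 fold change 0.10, SE 0.36, edgeR adjusted p = 0.9501). Ephb1, a receptor of progenitors in the mouse dentate gyrus, had 19.0, 22.7 and 23.1 CPM in CKO pools, against 14.1, 23.6 and 21.9 CPM in WT pools, and Ephb3 had 15.5, 21.4 and 21.5 CPM in CKO pools, against 13.9, 27.6 and 20.98 CPM in WT pools. These 3 receptors varied by less than 2-fold over the 6 pools. Epha5 and Epha7 stood at 57.1 ± 21.7 and 33.2 ± 12.7 CPM in CKO and at 39.3 ± 19.3 and 36.4 ± 26.3 CPM in WT pools. WT pool 1 alone had 66.8 CPM of Epha7. Ephb4, the progenitor receptor of ephrin-B2, stood at 6.91 ± 1.85 CPM in CKO and 5.13 ± 4.96 CPM in WT pools. The remaining Eph receptors averaged under 7 CPM in either genotype. Epha8 had 301 reads in CKO pool 2, of which 288 came from library 1, and 0 to 6 reads in the other 5 pools.

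Because Notch signals reach DNA through Rbpj, the 250 bases before the RefSeq start sites (GRCm38.p6) were searched for its core motif GTGGGAA on either strand. Windows were at hand for 58 of the 68 members, and 2 of them held the motif (3.45%), where 6.18% of all symbols with a window did. The members with it were Epha7 and Plxnb2. Their windows are shown with that of Ephb6, the member of smallest p above 1 CPM, which held none; capitals mark the motif, which is in reverse orientation in Plxnb2. A match is a run of letters and not evidence of binding.
Epha7 (chr4:28812881-28813130, plus strand): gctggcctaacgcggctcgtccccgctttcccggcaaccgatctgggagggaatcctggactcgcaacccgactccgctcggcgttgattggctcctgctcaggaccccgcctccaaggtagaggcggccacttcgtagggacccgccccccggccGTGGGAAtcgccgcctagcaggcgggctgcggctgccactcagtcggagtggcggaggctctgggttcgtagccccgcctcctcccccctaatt
Plxnb2 (chr15:89180789-89181038, minus strand): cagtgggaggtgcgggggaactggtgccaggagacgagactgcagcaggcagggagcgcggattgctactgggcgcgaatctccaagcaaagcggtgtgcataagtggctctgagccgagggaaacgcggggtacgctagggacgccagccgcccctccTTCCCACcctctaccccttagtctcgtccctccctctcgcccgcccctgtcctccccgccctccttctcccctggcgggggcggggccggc
Ephb6 (chr6:41605261-41605510, plus strand): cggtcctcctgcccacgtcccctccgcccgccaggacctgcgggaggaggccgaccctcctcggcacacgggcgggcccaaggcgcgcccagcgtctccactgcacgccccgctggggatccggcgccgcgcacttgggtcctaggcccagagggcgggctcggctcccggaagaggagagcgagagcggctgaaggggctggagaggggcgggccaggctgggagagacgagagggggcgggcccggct

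The most abundant ligands per kb of exon were transmembrane semaphorins of classes 4 to 6, namely Sema4a, Sema4b, Sema6d, Sema5b and Sema6a. Efna1 came next, above Sema4d. Other members of these classes were low, such as Sema4c at 0.342 and Sema6c at 0.131 CPM per kb (means of 6 pools). Sema4a (chromosome 3, 88435959 to 88461182) had 82.0, 43.5 and 75.6 CPM in CKO pools, against 37.8, 77.6 and 124 CPM in WT pools. Sema4b had 58.4, 67.0 and 53.2 CPM in CKO pools, against 50.3, 56.7 and 130 CPM in WT pools. In both genes WT pool 3 was the highest of the 6, and the genotypes overlapped. The log2 fold changes were -0.25 (SE 0.46) and -0.41 (SE 0.40), with edgeR adjusted p = 0.906 and 0.834. Without WT pool 3 they were 0.22 and 0.15.

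Sema4d, a ligand of plexin-B1 found in oligodendrocytes, and Sema6a showed the same high value in WT pool 3. Sema4d had 35.0, 22.7 and 43.3 CPM in CKO pools, against 24.5, 31.9 and 83.5 CPM in WT pools. Sema6a had 72.5, 55.3 and 61.3 CPM in CKO pools, against 38.8, 54.1 and 155 CPM in WT pools. Without WT pool 3 the log2 fold changes of Sema4d and Sema6a were 0.25 and 0.44, against -0.47 and -0.39 with all pools. Summed oligodendrocyte markers were also highest in WT pool 3, at 6292 CPM, and their part in these values was not tested. Within that pool, library 1 held 6.15 CPM of Sema4a and 2.65 CPM of Sema4d, and library 2 held 228 and 155 CPM.

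Sema6d, a ligand of class A plexins, had the smallest p among the semaphorins. It had 98.7, 120 and 152 CPM in CKO pools, against 56.7, 114 and 52.1 CPM in WT pools. WT pool 2 lay within the CKO range and the other WT pools below it (log2 fold change 0.74, SE 0.36, unadjusted p = 0.0818, edgeR adjusted p = 0.790). The contrast was 0.55 in library 1 and 0.73 in library 2, and 1.24 without WT pool 2. Sema5a and Sema5b stood at 53.6 ± 22.8 and 58.0 ± 15.03 CPM in CKO and at 51.4 ± 13.1 and 73.3 ± 24.6 CPM in WT pools.

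Secreted class 3 semaphorins all stood below Sema4a, Sema4b, Sema6d, Sema5b and Sema6a per kb, and were less even among pools. Within class 3, Sema3d was the most abundant, with 72.3, 58.9 and 7.30 CPM in CKO pools, against 40.5, 57.4 and 6.99 CPM in WT pools. In both genotypes pool 3 was the low one, by more than the difference between genotypes. Sema3c had 16.4, 0.740 and 16.1 CPM in CKO pools and 6.86 to 8.78 CPM in WT pools, and Sema3e stood at 14.2 ± 8.51 CPM in CKO and 6.33 ± 4.29 CPM in WT pools. Sema3a had 9.08 CPM in CKO pool 2 and 0.119 to 1.32 CPM in the other 5 pools. Sema3f and Sema3g had 3 to 31 reads per pool. Of 18 semaphorins tested, 10 had a log2 fold change above 0 and 8 below 0 (median 0.10), and 0 reached an unadjusted p under 0.05.

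Among the receptors of semaphorins, Plxnb1 (chromosome 9, 109095389 to 109119917) was both the most abundant and the steadiest member. It had 175, 170 and 181 CPM in CKO pools, against 162, 198 and 195 CPM in WT pools, a spread of 1.22-fold over the 6 pools. The log2 fold change was -0.08 (SE 0.19, edgeR adjusted p = 0.931), the smallest SE among the members. Its sign turned with total-count scaling, as given in the closing section. Plxnb2, a receptor of class 4 semaphorins with a role in neuroblast migration, had 91.1, 48.4 and 85.9 CPM in CKO pools, against 71.5, 61.6 and 76.8 CPM in WT pools. The WT values lay within the CKO range (log2 fold change 0.10, SE 0.30, edgeR adjusted p = 0.941).

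Plxnb3, a receptor of the oligodendrocyte lineage, had 74.7, 53.3 and 9.09 CPM in CKO pools, against 48.6, 77.2 and 40.0 CPM in WT pools. CKO pool 3 was the low one, and the log2 fold change of -0.28 (SE 0.69) was 0.25 without it. Summed precursor markers (7 genes) were lowest in the same pool, at 1109 CPM, against 2643 and 3274 CPM in the other CKO pools and 1671 to 2790 CPM in WT pools. Their part in the Plxnb3 values was not tested. Plxna2, a receptor of Sema6a, had 65.1, 35.8 and 30.5 CPM in CKO pools, against 17.0, 33.9 and 15.2 CPM in WT pools. Only WT pool 2 reached into the CKO range. The log2 fold change was 0.99 (SE 0.46, unadjusted p = 0.0691, edgeR adjusted p = 0.790). Leaving out WT pool 2 gave 1.51, library 1 alone 0.75 and library 2 alone 0.94. Libraries 1 and 2 were far apart for Plxna2, however, at 10.5 and 60.7 CPM in WT pool 2 and 30.2 and 5.33 CPM in WT pool 3. Plxna3 stood at 21.5 ± 2.497 CPM in CKO and 19.6 ± 5.18 CPM in WT pools. Plxna1, Plxna4 and Plxnc1 had their lowest value in WT pool 3, at 1.35, 1.09 and 0.901 CPM, against 6.33 to 18.1 CPM in the other 5 pools.

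The neuropilins, co-receptors that bind secreted semaphorins and vascular endothelial growth factor, were also lowest in WT pool 3. Nrp1 had 39.9, 31.5 and 53.9 CPM in CKO pools, against 32.7, 28.8 and 3.39 CPM in WT pools. Nrp2 had 18.4, 27.5 and 19.1 CPM in CKO pools, against 27.0, 20.1 and 2.41 CPM in WT pools. For both, WT pool 3 stood far below the other 5 and in both of its libraries. The log2 fold changes were 0.95 (SE 0.74) and 0.39 (SE 0.78), with edgeR adjusted p = 0.812 and 0.913, and without WT pool 3 they were 0.44 and -0.13.

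**Figure D3:**
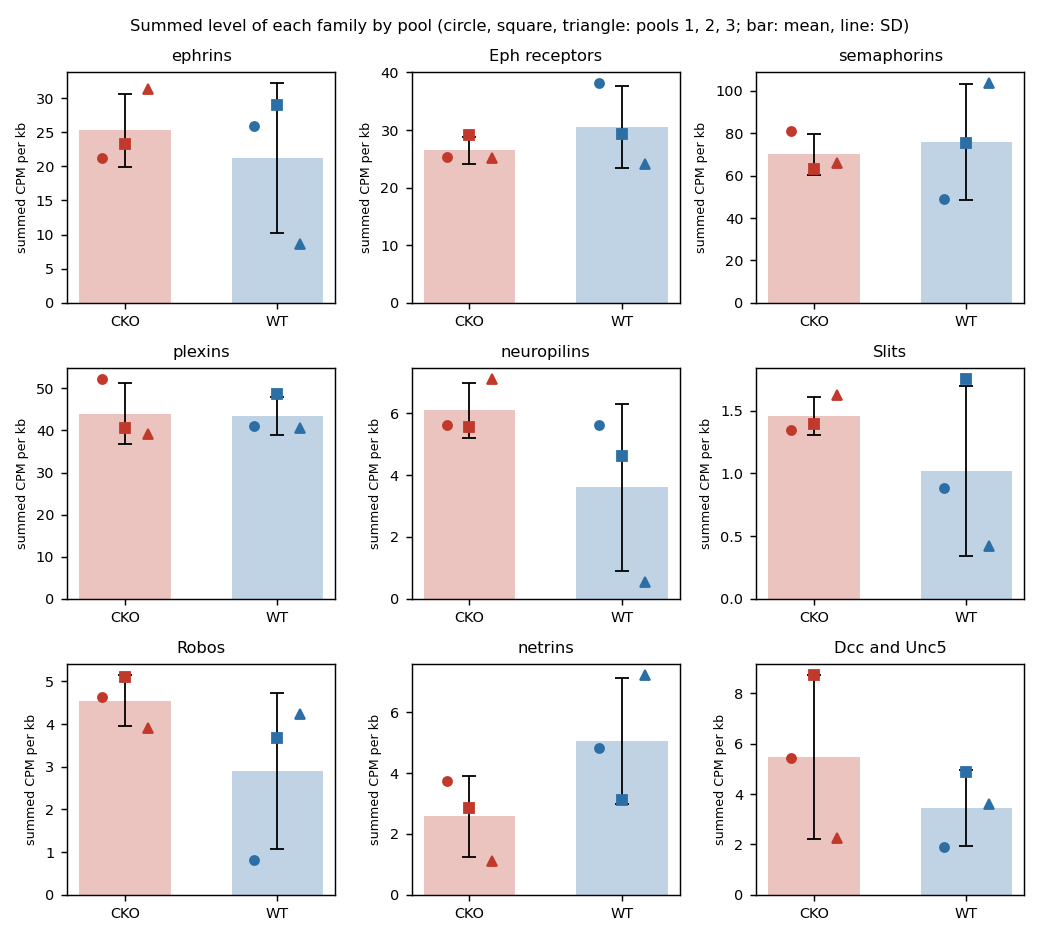
Summed level of each family in CKO and WT pools, in CPM per kb of exon. Points are pools (circle, square and triangle for pools 1, 2 and 3), bars are means and lines are SD of 3 pools. The low WT point of the neuropilins and ephrins is WT pool 3, and that of the Robos is WT pool 1.

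Slits were low throughout. Slit2, the most abundant, had 12.7, 11.2 and 9.99 CPM in CKO pools, against 6.35, 25.0 and 9.72 CPM in WT pools, and the log2 fold change was -0.28 (SE 0.58, edgeR adjusted p = 0.918). Without WT pool 2 it was 0.54. Slit1 had 4.56, 2.98 and 2.20 CPM in CKO pools, against 2.47, 3.47 and 0.0265 CPM in WT pools. The last value is 1 read, and the log2 fold change was 0.71 with SE 1.28 (edgeR adjusted p = 0.902), or 0.13 without that pool. Slit3 stood at 2.81 ± 2.38 CPM in CKO and 0.873 ± 0.605 CPM in WT pools.

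Their receptors Robo1 and Robo2 were even among CKO pools and uneven among WT pools. Robo2 (chromosome 16, 73891839 to 74411825) had 46.8, 46.7 and 41.7 CPM in CKO pools, against 6.21, 23.6 and 65.5 CPM in WT pools. The CKO values lay inside the WT range. Robo1 had 27.1, 26.9 and 23.0 CPM in CKO pools, against 5.87, 32.2 and 4.42 CPM in WT pools. The log2 fold changes were 0.50 (SE 0.73) for Robo2 and 0.86 (SE 0.77) for Robo1, with edgeR adjusted p = 0.880 and 0.821. Left-out pools moved them to between 0.03 (without WT pool 1) and 1.60 (without WT pool 3) for Robo2, and to between 0.43 (without WT pool 3) and 2.37 (without WT pool 2) for Robo1. The Robo2 value of WT pool 3 came from library 1, at 159 CPM, while library 2 of that pool had 1.15 CPM. Robo3, which in mammals has lost high-affinity binding of Slits, had 96, 218 and 19 reads in CKO pools, against 2, 16 and 16 reads in WT pools. Of the 96 and 218 reads, 92 and 213 came from library 1. Robo4, a receptor of endothelial cells, had 0, 3 and 2 reads in CKO pools, against 25, 61 and 8 reads in WT pools, and was not tested. Summed endothelial markers (8 genes) were at 9.70 to 39.5 CPM in CKO pools and 18.7 to 108 CPM in WT pools. The 8 did not move together. Cdh5 had 0 reads in CKO pools 1 and 3 and in WT pool 3, and Ly6c1 had 0 in WT pool 3. Cldn5 was highest in WT pool 1, at 59.6 CPM, and Kdr in WT pool 3, at 17.4 CPM. The part of endothelial RNA in the Robo4 counts was not tested.

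All 3 netrins had log2 fold changes below 0 with libraries summed, but in library 2 alone Ntn1 was at 0.22 and Ntn4 at 0.11. Ntn1, the attractant of commissural axons, had 21.8, 14.7 and 5.67 CPM in CKO pools, against 24.4, 13.3 and 42.7 CPM in WT pools. The genotypes overlapped, and the log2 fold change was -0.93 with SE 0.63 (edgeR adjusted p = 0.8004), or -0.43 without WT pool 3 and -0.51 without CKO pool 3. Library 1 of WT pool 3 had 98.5 CPM and library 2 had 4.43 CPM. Ntn4, a laminin-like protein of basement membranes, stood at 1.19 ± 0.585 CPM in CKO and 1.65 ± 1.13 CPM in WT pools (log2 fold change -0.47, SE 0.85, edgeR adjusted p = 0.902), and at 0.30 without WT pool 2.

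Ntn5 (chromosome 7, 45684022 to 45694556) was the member of smallest p and the tested member without overlap. It had 2, 2 and 0 reads in CKO pools, against 75, 20 and 15 reads in WT pools. In CPM these are 0.0351, 0.0449 and 0 in CKO pools, against 1.48, 0.472 and 0.397 in WT pools. The CKO values were at or under the 3 reads taken as the floor (0.0526 to 0.0673 CPM), and the WT values were low as well. The fitted log2 fold change of -4.76 (SE 1.29, unadjusted p = 0.00757, edgeR adjusted p = 0.790, exact permutation p = 0.1, the smallest possible) depends on the prior count and is no bound. At an unadjusted p under 0.05, 2.9% of all genes tested were lower in CKO, and 8.17% had no overlap in that direction. The reads of WT pool 3 all came from library 2, and 18 of the 20 in WT pool 2. Exons of Ntn5 overlap those of Sec1 on the opposite strand. The libraries do not mark strand and the settings of the counting are not given. Whether reads of the overlap were left out as ambiguous or given to Ntn5 is therefore not known.

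Of the netrin receptors, Dcc and Unc5c had higher means in CKO pools, and neither passed. Dcc had 27.9, 42.7 and 13.8 CPM in CKO pools, against 1.84, 22.5 and 8.93 CPM in WT pools. Unc5c had 39.3, 32.7 and 13.4 CPM in CKO pools, against 10.6, 22.1 and 2.83 CPM in WT pools. In each gene CKO pool 3 lay below WT pool 2, and CKO pools 1 and 2 lay above all WT pools. The log2 fold changes were 1.34 (SE 0.87) and 1.26 (SE 0.76), with edgeR adjusted p = 0.8004 and 0.797. They were 2.41 and 2.15 without WT pool 2. Dcc was at 0.85 without WT pool 1, and Unc5c at 0.80 without WT pool 3. Summed neuroblast markers (6 genes) were at 239 to 288 CPM in CKO pools and 137 to 278 CPM in WT pools. Among them Dcx had 38.8, 50.6 and 24.6 CPM in CKO pools, against 11.5, 32.0 and 10.8 CPM in WT pools. The neuroblast markers did not move together. Log2 fold changes were 1.07 (Dcx), 0.97 (Sox11), 0.63 (Eomes) and 0.48 (Igfbpl1), but -0.65 for Neurod1 and -0.86 for Tubb3. The precursor marker Lhfpl3 had 216, 278 and 80.2 CPM in CKO pools, against 110, 178 and 107 CPM in WT pools. It had the highest log2 fold change of its list, at 0.54 (SE 0.46). Pdgfra and Gpr17 were at 0.11 and 0.05, and Olig1, Olig2, Cspg4 and C1ql1 at -0.03, -0.19, -0.54 and -0.93. The part of these cell types in the Dcc and Unc5c values was not tested. Unc5a, Unc5b and Unc5d averaged under 6 CPM in either genotype. Unc5d had 11.6 CPM in WT pool 3 and 0.123 to 3.37 CPM in the other 5 pools.

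The members varied widely among pools. Among 32 members with a mean of at least 10 CPM, the highest pool exceeded the lowest by a median of 3.97-fold, where the median over 10763 such genes was 2.66-fold. Only 6 of the 68 members stayed within 2-fold over the 6 pools, 25 varied by 10-fold or more, and 7 had a pool with no read. WT pool 3 had the lowest value for 26 of the 64 members tested (40.6%), and for 28.8% of all genes tested. WT pool 1 was lowest for 16 (25.0% against 21.2%).

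Libraries of the same pool also differed. Each pool had 2 libraries, which the labels number as repeats of that pool. Among members with at least 5 CPM, the libraries differed by more than 4-fold for 18 of 31 in WT pool 3 (58.1%, against 37.7% of all genes tested at that level). In the 3 CKO pools it was 5 of 42, 8 of 42 and 7 of 39, and in WT pools 1 and 2 it was 6 of 40 and 6 of 41. Library 2 held the higher value for 54.8% to 73.8% of the members at that level, depending on the pool. For all genes tested that share was 48.2% to 51.2%. The members tested have long transcripts, with a median of 7041 exon bases, where the median over 20712 genes is 3270. Among tested genes with at least 5000 exon bases the share higher in library 2 was 57.0% to 72.9%, and among shorter genes 36.3% to 47.0%. In CKO pools 1, 2 and 3 the members stood at 71.4%, 73.8% and 71.8%, above the long genes at 59.5%, 58.8% and 63.9%. In WT pools they stood at 62.5%, 73.2% and 54.8%, near the long genes at 64.2%, 72.9% and 57.0%. The part of length in the members' share was not tested. Of 55 members tested within both libraries, 27 had a log2 fold change of the same sign in both (49.1%), where 59.3% of all genes tested so did.

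**Figure D4:**
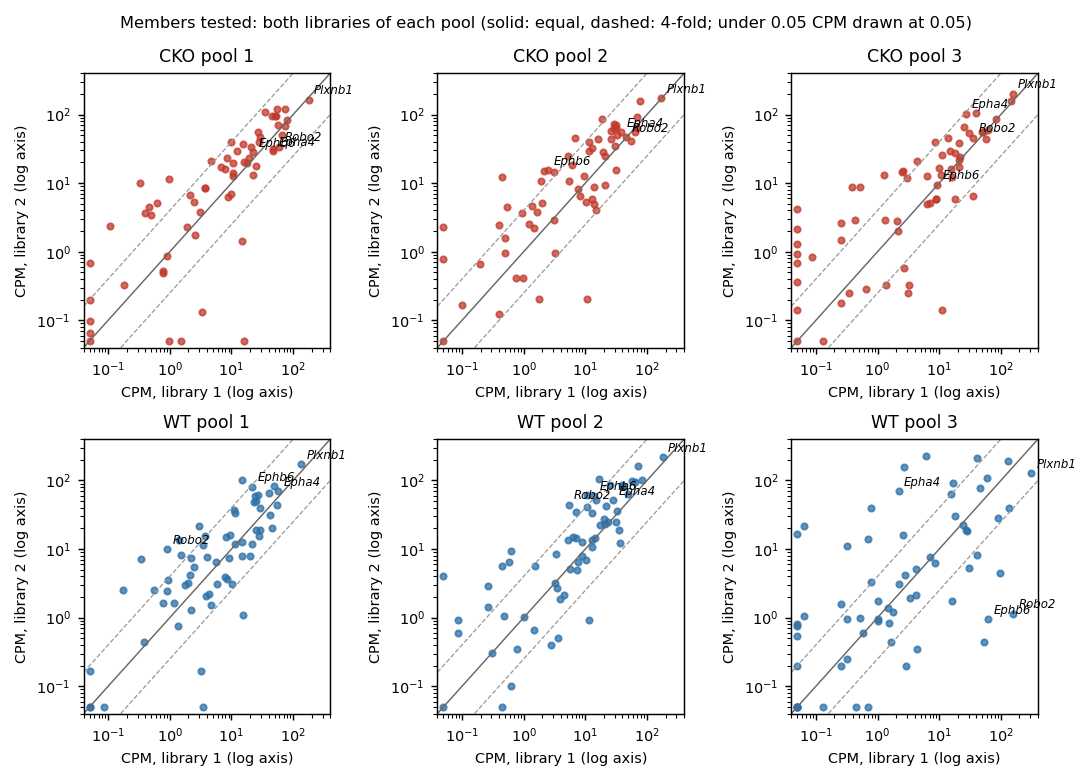
CPM of each tested member in library 1 against library 2 of the same pool, on log axes, 1 panel per pool, with CKO pools above and WT pools below. The solid line marks equal values and the dashed lines a 4-fold difference; in WT pool 3 more than in the other panels, points lie outside the dashed lines, among them Epha4, Robo2 and Ephb6.

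**Figure D5:**
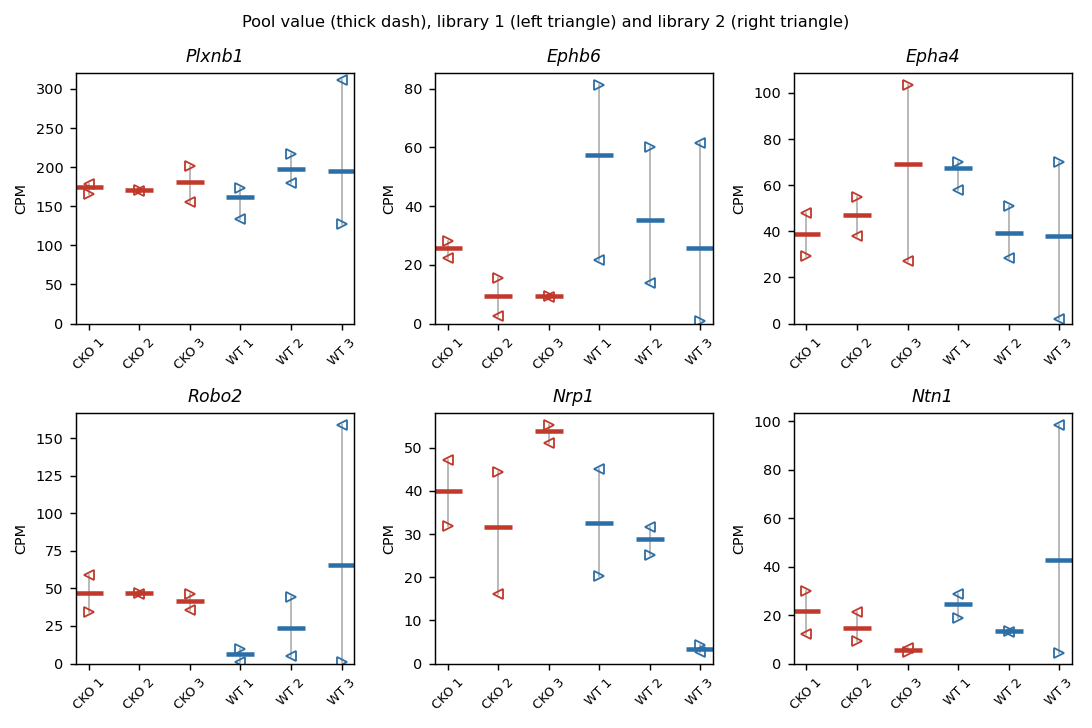
CPM of 6 members in each pool, with CKO pools at left in red and WT pools at right in blue. Thick dashes are pool values and triangles are library 1 (left-pointing) and library 2 (right-pointing). Plxnb1 is level across pools although its libraries differ in WT pool 3, Nrp1 is low in both libraries of WT pool 3, and Robo2, Ntn1 and Ephb6 in that pool are carried by library 1.

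Members on the chromosome of Notch2 were of mixed direction. There are 6 on chromosome 3, of which Sema6c lies nearest, at 95160457 to 95174024, while Notch2 begins at 98013527. Their log2 fold changes were 0.86 (Sema6c), -0.25 (Sema4a), -0.28 (Efna1), 0.32 (Efna3), -2.41 (Efna4) and 1.26 (Unc5c).

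Beside the members, 30 other guidance ligands, receptors and cofactors were listed, and all were tested. In edgeR 0 passed after adjustment, and 3 were higher and 0 lower at an unadjusted p under 0.05 (10%, against 5.91% of all genes tested). Neo1, a relative of Dcc that binds netrins, had 104, 65.5 and 104 CPM in CKO pools, against 67.0, 54.9 and 47.1 CPM in WT pools. Only CKO pool 2 fell inside the WT range (log2 fold change 0.69, SE 0.28, edgeR adjusted p = 0.790), and the contrast was 0.13 in library 1 and 1.06 in library 2. Adam10, the protease that sheds ephrins and the Notch ectodomain, was another. Ntng1, a membrane-bound netrin-G, had 4.05, 1.05 and 4.76 CPM in CKO pools, against 0.119, 0.283 and 0.0265 CPM in WT pools. Every CKO value lay above every WT value, as for 7.67% of all genes tested. Its log2 fold change was 4.50 (SE 1.17, edgeR adjusted p = 0.790), and DESeq2 gave an adjusted p = 0.0112. It was the single gene called by DESeq2 among 85 of this and the next list with an adjusted p, where 0.633% of all genes were called.

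A further list held 56 genes of signalling downstream of guidance receptors. In edgeR 0 passed after adjustment, and 1 was higher and 2 were lower at an unadjusted p under 0.05. That is 5.36% of the list, near the 5.91% of all genes tested, so the values of these 3 are given as a description. Enah, an actin regulator of the growth cone, stood at 94.1 ± 11.4 CPM in CKO and 62.4 ± 9.38 CPM in WT pools (log2 fold change 0.59, SE 0.24). Cdk5, a kinase of semaphorin signalling, stood at 59.2 ± 14.7 CPM in CKO and 93.5 ± 4.77 CPM in WT pools (-0.66, SE 0.26). Tiam1, a Rac activator, stood at 1.41 ± 0.223 CPM in CKO and 4.21 ± 1.62 CPM in WT pools (-1.58, SE 0.65). All 3 had an edgeR adjusted p = 0.790.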

How the data were processed

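RNA of 6 pools of sorted hippocampal cells was analysed, 3 CKO and 3 WT. The authors deposited raw read counts by gene symbol in 24 tables, each with 48321 symbols and 5 summary lines. Per the labels' protocols, Smart-Seq2 gave the cDNA and Nextera XT the libraries, neither of which marks strand. Per the submitters' processing notes, Bowtie2, HTSeq and build GRCm38 were used, with versions, annotation and settings not given in the sources used here. Reads outside genes made up 16.0% to 35.3% of all reads, unaligned reads 11.2% to 21.7% and ambiguous reads 2.51% to 3.43%; none of these entered library sizes or tests. The lines for multiple alignments and low quality held 0 reads, so near-identical genes may share reads. Exons of 17 of the 68 members overlap another gene.

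For each of 12 libraries, lanes 4 and 5 agreed within sampling noise (chi-square per degree of freedom 0.981 to 1.01, smallest p = 0.204) and were added. Libraries of the same pool differed more (75.9 to 376); as repeats under the same pool label they were added too, so n = 3 pools per genotype. Whether pools shared animals is not stated, and p-values cover only the variation among these 6 pools.

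Genotypes were compared over all genes with edgeR 4.0.16 in R 4.3.3 (filterByExpr, TMM, robust quasi-likelihood F test, Benjamini-Hochberg adjusted p under 0.05 over 21477 genes). The common biological coefficient of variation was 0.725. Single values were also compared by an exact permutation test (two-sided, on log2 CPM with 0.05 added), which cannot give p under 0.1. DESeq2 1.42.0 and limma 3.58.1 were alternatives, with other scalings, filters, single libraries, left-out pools and a block on pool number. GENCODE M21 (GRCm38) gave positions and exon lengths for all 68 members.

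The members and lists were chosen with earlier results of these data known. Values in every pool were given for Notch2, the 2 members of each family with the highest level per kb, and members at an unadjusted p under 0.05 or, from 1 CPM upwards, without overlap. Other members named, and the promoter motif, were picked after their values were seen.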

Additional observations from a re-analysis of the deposited data

How the results depend on the processing

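In each of the 15 alternatives 0 members were called. The count over all genes was 0 in 14 of them and 129 with DESeq2, which also called 1 of the other guidance genes, Ntng1 (a count added after seeing the data). Ntn5 could not be fitted in library 1 alone. The median log2 fold change of the members lay between 0.08 and 0.34 in all 15. The adjusted threshold was passed by none of the 19 members named by rule in any alternative, but signs turned. In library 1 alone the log2 fold changes of Sema4a, Sema4b, Plxnb2, Slit2 and Robo2 were 0.39, 0.36, -0.41, 0.74 and -0.22. In library 2 alone those of Efna1, Epha4, Plxnb1, Ntn1 and Ntn4 were 0.28, -0.0407, 0.0339, 0.22 and 0.11. With limma-voom Efna1 and Sema4a were at 0.52 and 0.0119, and with total-count scaling Plxnb1 was at 0.0141. The cause was not tested. With a pool left out, Efna1 ranged from -0.865 to 0.34, Epha4 from -0.12 to 0.43, Sema4a from -0.57 to 0.22, Sema4b from -0.64 to 0.15, Plxnb1 from -0.15 to 0.0243, Plxnb2 from -0.0492 to 0.34, Nrp2 from -0.13 to 0.96, Slit2 from -0.61 to 0.54 and Ntn4 from -0.95 to 0.30.

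With pool number as a replicate block, 0 genes were called and Efna1 turned to 0.27, while the other 18 kept their sign. Deviations of same-numbered pools from their genotype means correlated at 0.06, 0.02 and -0.03 over genes. Pools of different number correlated at -0.09 to 0.05. No pairing by number was seen, but so few pools cannot exclude it. For members under about 1 CPM a few reads decide the value, since 1 read is 0.0175 to 0.0265 CPM.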
